A study of Mus musculus with 10 samples.

Results

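The genes described here encode the route by which pyruvate enters mitochondria and the citric acid cycle, with the shuttle and NADPH-linked enzymes that exchange metabolites with it. They are 33 genes out of the 47702 in the deposited table, chosen by symbol: the pyruvate carrier, the pyruvate dehydrogenase complex and its regulators, pyruvate carboxylase, enzymes of the cycle, the malate-aspartate shuttle and partners that make or use NADPH. The choice used no measured value, but the list was drawn up with earlier results of these data known. All 33 were found, and all 33 were among the 12247 genes that averaged 0.5 FPKM or more over the libraries and were tested. FPKM is the number of fragments scaled to transcript length and to the total of the library, so levels can be compared between genes of different length.

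Liver RNA of female mice was measured in 5 libraries labelled as knockouts of Etnppl in all tissues (KO) and in 5 from wild-type (WT) animals. Both groups had eaten a chow diet for 20 weeks. The labels give neither strain nor age, do not state how the allele was made or which exons it lacks, and do not say whether 1 library stands for 1 mouse. The p-values therefore reflect only how far these libraries spread, which may be technical. Etnppl encodes a lyase that degrades phosphoethanolamine, a precursor of membrane phospholipids.

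Pyruvate made in the cytosol crosses the inner mitochondrial membrane through a carrier and is then either oxidised to acetyl-CoA by pyruvate dehydrogenase or carboxylated to oxaloacetate by pyruvate carboxylase. In liver the second route feeds gluconeogenesis, and the cycle also handles carbon from amino acids and fatty acids. Because NADH cannot cross the membrane, the malate-aspartate shuttle moves its reducing equivalents as malate, while isocitrate dehydrogenases and the transhydrogenase supply NADPH.

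Etnppl itself was at 65.79 ± 26 FPKM (SD, n = 5) in WT and 22.15 ± 3.92 FPKM (SD, n = 5) in KO, so 33.7% of the WT mean remained in libraries labelled KO. No WT and KO library overlapped for it, and WT 3 had the highest value, 108.39 FPKM. Hepatocyte genes were abundant, with Alb (albumin) at 39869.34 to 41786.22 FPKM in WT and 43188.28 to 44897.56 FPKM in KO (limma adjusted p = 0.24). Of 10 hepatocyte markers 2 rose (Cps1 and Ahsg) and 1 fell (Trf), where 8.54% of all genes tested were called. Of 7 muscle and fat genes, 1 (Myh4, of muscle) was listed at 0 in every library, and 0 of 2 tested were called. Among them Fabp4 was at 5.09 to 7.64 FPKM in WT and 6.44 to 11.74 FPKM in KO (limma adjusted p = 0.0752). Of 12 Kupffer cell (liver macrophage) markers, 5 fell and none rose, where 4.56% of all genes tested fell. Marco alone had a positive log2 difference, KO minus WT (0.75, limma adjusted p = 0.191). The 12 markers summed to 297.64 to 340.07 FPKM in WT and 207.48 to 298.97 FPKM in KO, with none listed at 0 throughout. In bulk tissue, fewer cells of a type and less RNA per cell cannot be told apart. Of the other lists, 0 of 10 sinusoidal endothelium, 1 of 10 stellate cell and 1 of 5 tested cholangiocyte markers fell, and 0 of 7 tested lymphocyte markers and 0 of 4 tested neutrophil markers were called. The part of cell composition in the results below was not tested. Relative depth, estimated from how finely low values are spaced, ran from 0.903 in KO 1 to 1.11 in WT 3, and absolute depth is not known.

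Of the 11 enzyme genes of the cycle in the mitochondrial matrix 3 rose and none fell, and 3 of 4 cytosolic and NADPH-linked partners fell. These groups do not divide mitochondria from cytosol. Nnt, which fell, belongs to the inner mitochondrial membrane. The cytosolic Mdh1 and Got1, grouped with the shuttle, had positive log2 differences (0.20 and 0.44) and did not pass. Of the 33 genes, 5 rose (Fh1, Slc25a10, Slc25a11, Ogdh and Mdh2), 4 fell (Nnt, Glud1, Idh1 and Aco1) and 24 did not pass limma at a Benjamini-Hochberg adjusted p under 0.05. That is 27.3% of the set, against 8.54% of all genes tested (3.98% higher and 4.56% lower). When testing was limited to genes averaging 5 FPKM or more, as all 33 do, 13.2% were called, with 6 of the 33 higher and 4 lower. The median log2 difference, KO minus WT, was 0.10 over the 33 genes and -0.02 over all genes tested. WT and KO libraries did not overlap for 6 genes that were higher and 5 that were lower in KO, where 8.87% of all genes tested had no overlap (4.08% higher and 4.78% lower). The calls for Fh1, Slc25a11, Ogdh and Nnt held in all 21 alternative analyses. Without WT 3 the counts were 5 higher and 4 lower, as with it, and without KO 5 they were 4 higher and 2 lower.

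**Figure D1:**
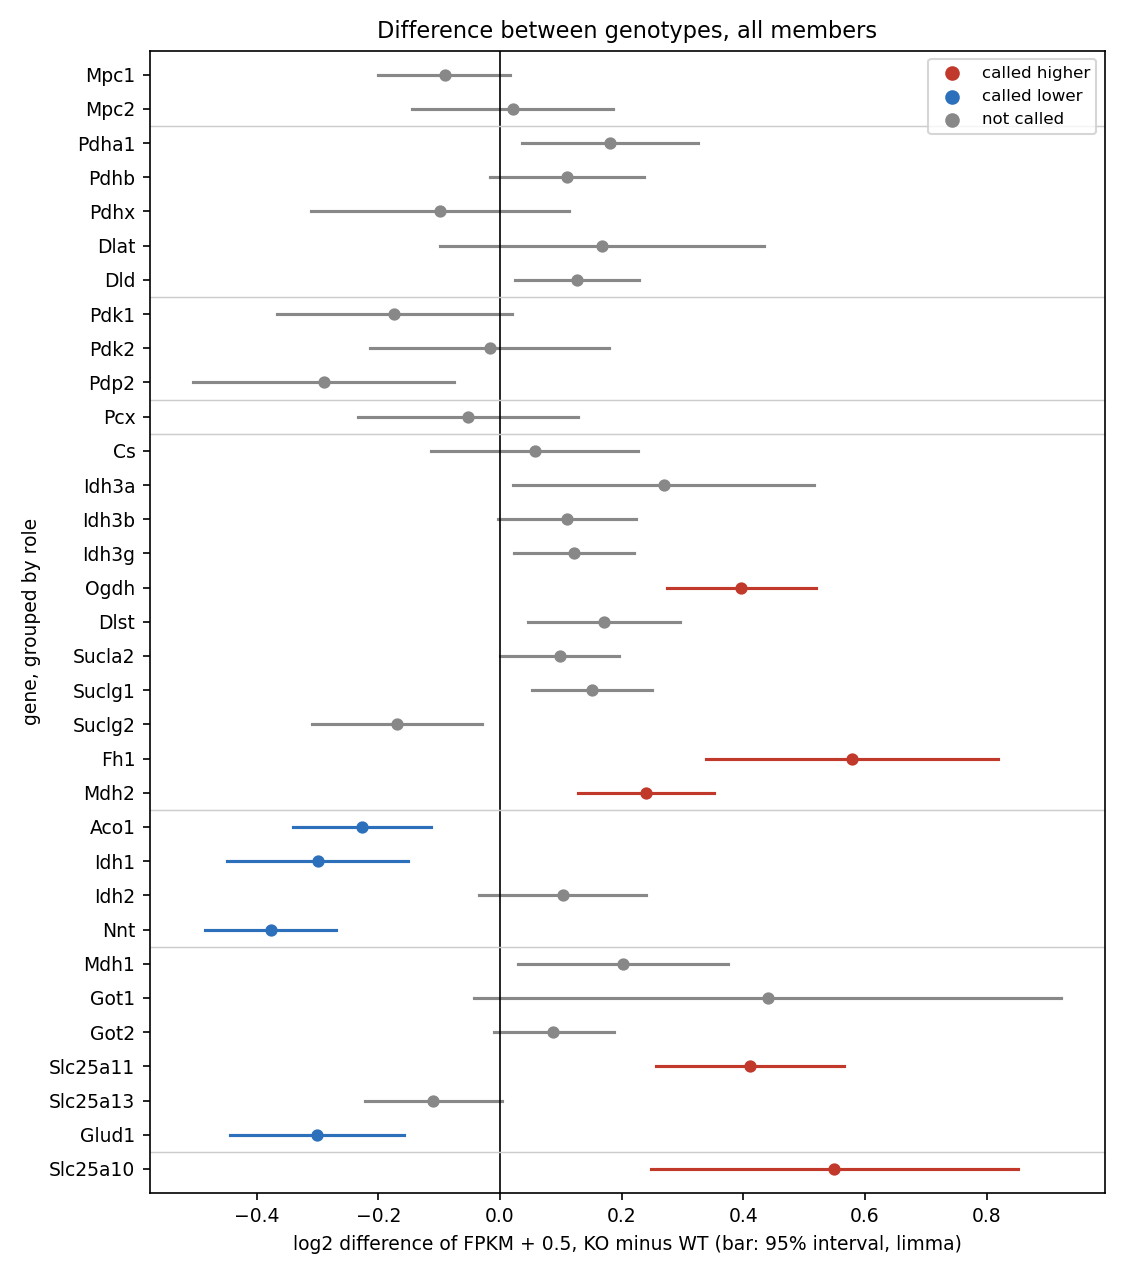
Log2 difference of FPKM + 0.5, KO minus WT, for each of the 33 genes (y axis, grouped by role) with its 95% interval from limma (n = 5 libraries per genotype). Red marks the 5 genes called higher, blue the 4 called lower and grey the rest. In the matrix group from Cs to Mdh2 only Suclg2 lies below 0.

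Fh1, fumarase, which hydrates fumarate to malate, had the largest rise. Its level was 68.84, 93.75, 91.05, 69.68 and 65.39 FPKM in WT 1 to 5 and 98.25, 119.21, 126.95, 115.56 and 117.28 FPKM in KO 1 to 5. All KO libraries lay above all WT libraries, and WT 2 and WT 3 were higher than the other WT libraries. KO exceeded WT by 0.58 on the log2 scale (SE 0.11, adjusted p = 0.0101 in limma), with means of 115.4 ± 10.6 and 77.74 ± 13.5 FPKM (SD, n = 5 per genotype). The gene lies at chr1:175600374-175625635 on the minus strand (mm10).

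Ogdh encodes the catalytic E1 component of the 2-oxoglutarate dehydrogenase complex, which turns 2-oxoglutarate into succinyl-CoA. It was at 70.04, 77.5, 66.88, 72.42 and 70.04 FPKM in WT 1 to 5 and 85.22, 95.08, 96.47, 94.65 and 99.3 FPKM in KO 1 to 5. KO 1 was the lowest KO library and still lay above WT 2, the highest WT library. KO exceeded WT by 0.40 on the log2 scale (SE 0.06, adjusted p = 0.00266 in limma), with means of 94.14 ± 5.31 and 71.38 ± 3.95 FPKM (SD, n = 5 per genotype). Dlst, the E2 component of the same complex, was at 105.3 ± 7.8 and 118.5 ± 4.71 FPKM and did not pass (log2 difference 0.17, limma adjusted p = 0.0872). It passed after quantile normalization (0.21, adjusted p = 0.0393) and without WT 2 (0.21, adjusted p = 0.0357). The ratio of Dlst to Ogdh within a library went from 1.33 to 1.59 in WT and from 1.19 to 1.3 in KO, without overlap. Dld, the E3 component that this complex shares with pyruvate dehydrogenase, differed by 0.13 and did not pass.

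Mdh2, the matrix malate dehydrogenase that regenerates oxaloacetate, was at 126.93, 142.71, 127.76, 143.61 and 136.19 FPKM in WT 1 to 5. In KO 1 to 5 it was at 151.82, 158.81, 163.29, 158.86 and 166.72 FPKM. The groups did not overlap, and the gap between the highest WT and the lowest KO library was smaller than the range within either group. Mdh2 was 0.24 higher on the log2 scale (SE 0.05, adjusted p = 0.0169 in limma).

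Ogdh and Mdh2 were also the only members whose promoters held the cAMP response element, TGACGTCA, in the 250 bases before an annotated start. RefSeq promoters (GRCm38.p6, the assembly of mm10) matched 31 of the 33 genes, all but Nnt and Idh3a. The element, which reads the same on both strands, was present in 1.55% of 32851 such windows and in at least 1 window of 1.77% of genes. For Ogdh it lay in 3 of the overlapping windows, at a single site. The first Ogdh window (chr11:6291347-6291596, plus strand) and the Mdh2 window (chr5:135778399-135778648, plus strand) are shown 5′ to 3′ because both genes rose and share these letters. Capitals mark the element, whose first base lies 51 bases before the RefSeq start in Ogdh and 127 in Mdh2, and in Mdh2 also the Sp1 motif GGGGCGGGG, which does not overlap it. The annotations differ for Mdh2: the GENCODE gene begins within the window at chr5:135778480, upstream of the element, so the element lies before the RefSeq start but after the GENCODE one.
Ogdh: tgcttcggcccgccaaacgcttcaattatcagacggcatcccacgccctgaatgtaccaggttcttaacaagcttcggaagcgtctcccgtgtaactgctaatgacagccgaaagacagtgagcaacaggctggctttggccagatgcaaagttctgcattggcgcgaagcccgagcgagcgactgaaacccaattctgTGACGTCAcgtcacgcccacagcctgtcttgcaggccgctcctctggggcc
Mdh2: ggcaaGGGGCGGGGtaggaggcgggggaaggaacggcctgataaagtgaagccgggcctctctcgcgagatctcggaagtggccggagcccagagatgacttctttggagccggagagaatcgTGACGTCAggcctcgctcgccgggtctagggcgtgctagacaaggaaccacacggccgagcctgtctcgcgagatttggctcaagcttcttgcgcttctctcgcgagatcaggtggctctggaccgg

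Other motifs were searched on both strands of the same windows. GGGGCGGGG was found in 9 of 31 members against 11.8% of genes, the E-box CACGTG in 5 against 6.86%, and the YY1 motif AAGATGGC in 1, Idh3g, against 1.83%. The letters of the NRF1 motif (0.877% of genes), the ERR motif TCAAGGTCA (0.422%), the GABPA motif CCGGAAGT (3.23%) and the PPAR response element (0.0407%) were in no window of the 31. The shares of genes, also for TGACGTCA, are over all 27025 genes with such windows, whether or not expressed in liver. A gene with several windows, such as Ogdh, has more chances of a match. These matches are descriptions of sequence and do not show that a factor was bound.

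The other enzymes of the cycle among the 33 genes did not pass the test, although most were nominally higher. Suclg1, the alpha subunit of succinyl-CoA ligase that pairs with either beta subunit, was at 135.81 to 151.02 FPKM in WT and 154.01 to 163.61 FPKM in KO, with no overlap, and narrowly missed the threshold (log2 difference 0.15, limma adjusted p = 0.0606). It passed among genes of at least 5 FPKM (adjusted p = 0.0477) and after median-of-ratios scaling (adjusted p = 0.0465). The beta subunits pointed in opposite directions. Sucla2, of the ATP-forming enzyme, differed by 0.10 and Suclg2, of the GTP-forming enzyme, by -0.17, and neither passed (limma adjusted p = 0.203 and 0.129). Their ratio, Sucla2 to Suclg2, ran from 0.83 to 1.13 in WT and from 1.05 to 1.19 in KO, with overlap.

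The 3 subunits of the NAD-dependent isocitrate dehydrogenase had unequal levels. In WT the regulatory subunits Idh3b and Idh3g were at 131.8 ± 6.47 and 57.97 ± 2.35 FPKM, against 18.46 ± 2.55 FPKM for the catalytic subunit Idh3a (SD, n = 5 each). Log2 differences were 0.27 for Idh3a, 0.11 for Idh3b and 0.12 for Idh3g, none of which passed (limma adjusted p = 0.168, 0.214 and 0.121). Idh3g libraries did not overlap between genotypes. Cs, citrate synthase, which starts the cycle, was at 47.8 ± 5.6 in WT and 49.52 ± 2.78 FPKM in KO, a log2 difference of 0.06 with a 95% interval from -0.11 to 0.23.

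**Figure D2:**
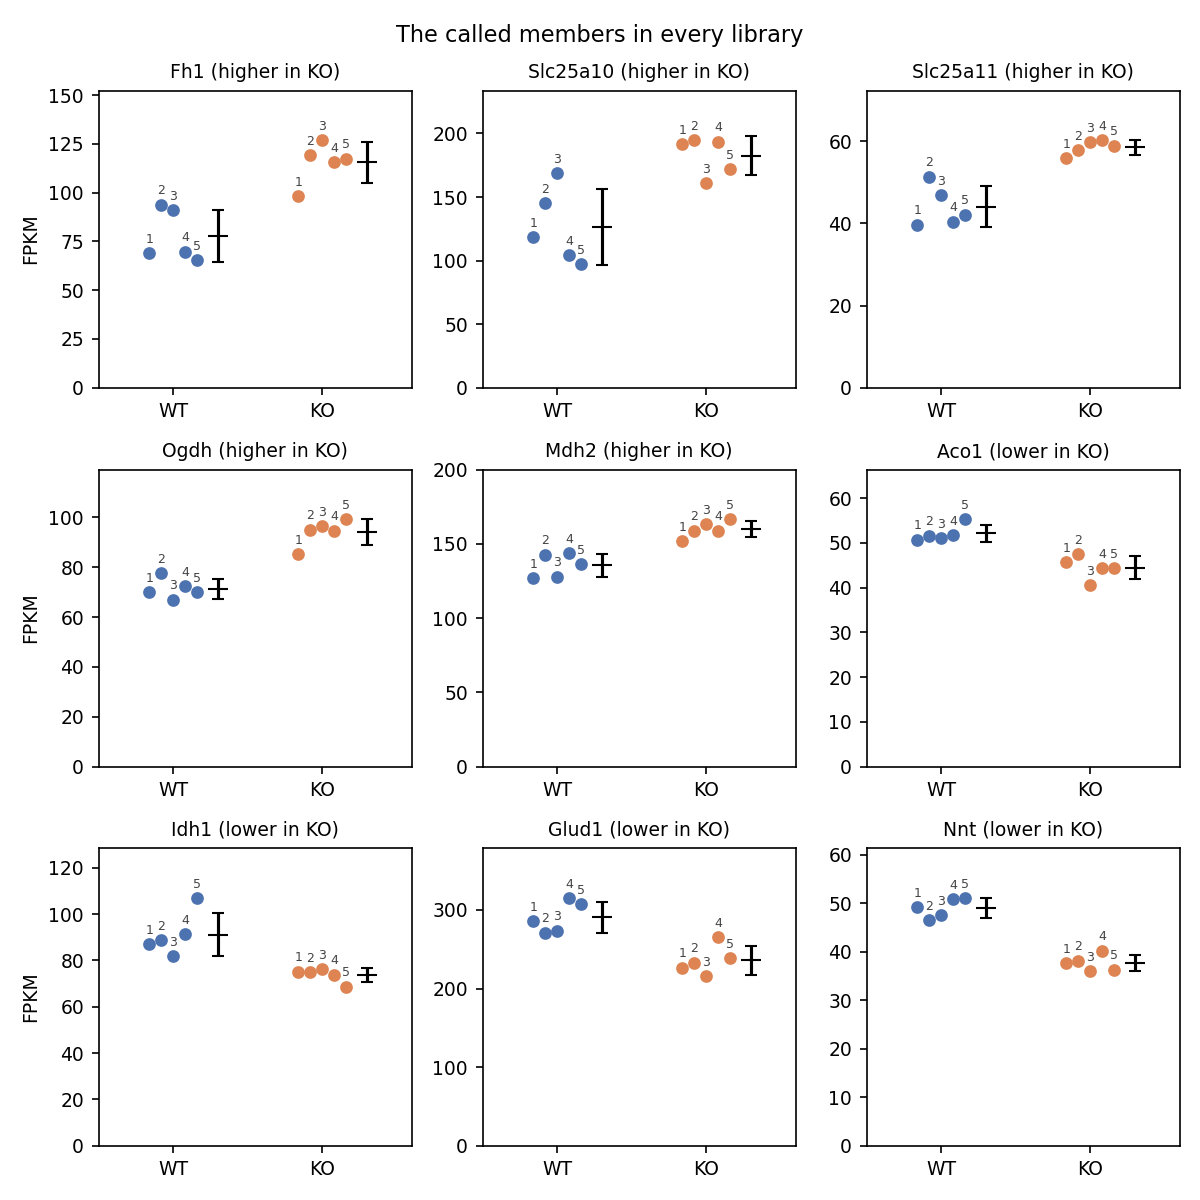
FPKM in every library (points, numbered by replicate) for the 9 genes called by limma, with the mean and SD of each genotype (black, n = 5). Only Slc25a10 has WT and KO libraries that overlap, through WT 3 at 168.79 FPKM and KO 3 at 160.73 FPKM.

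The cytosolic and NADPH-linked partners held 3 of the 4 falls. Nnt, the nicotinamide nucleotide transhydrogenase of the inner membrane, which makes NADPH from NADH, was at 49.15, 46.52, 47.48, 50.85 and 51.04 FPKM in WT 1 to 5. In KO 1 to 5 it was at 37.65, 38.16, 35.94, 40.16 and 36.27 FPKM. The spread within each genotype was small (4.09% and 4.48% of the mean) and the groups were well apart. Nnt had a log2 difference of -0.38 (SE 0.05, adjusted p = 0.00181 in limma), the smallest p among the 33 genes. Nnt lies at chr13:119335448-119408997 on the minus strand (mm10). The C57BL/6J strain is known to carry a deletion within Nnt, the labels do not name the strain, and a level per gene does not show which exons were present. The annotation also holds a second, overlapping gene of the same name on the same strand. That gene has no value in the deposited data, so how reads in the shared bases were counted is uncertain.

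Idh1, the cytosolic and peroxisomal isocitrate dehydrogenase that makes NADPH, was at 87.03, 88.81, 81.85, 91.42 and 106.99 FPKM in WT 1 to 5 and at 75.11, 74.96, 76.29, 73.79 and 68.71 FPKM in KO 1 to 5. WT 5 was the highest and KO 5 the lowest library. Idh1 differed by -0.30 on the log2 scale (SE 0.07, adjusted p = 0.0221 in limma), and without KO 5 it was -0.27 with an adjusted p of 0.0577. Idh2, the mitochondrial enzyme of the same reaction, was at 64.24 ± 3.86 and 69.08 ± 5.35 FPKM and did not pass (log2 difference 0.10, limma adjusted p = 0.342). The ratio of Idh1 to Idh2, which does not depend on how libraries are scaled, was 1.34, 1.33, 1.19, 1.5 and 1.79 in WT 1 to 5 and 1.08, 1.15, 1.13, 0.945 and 1.05 in KO 1 to 5, without overlap.

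Aco1, the cytosolic aconitase that also binds iron-responsive elements in RNA, was at 50.76, 51.65, 51.05, 51.77 and 55.35 FPKM in WT 1 to 5. KO 1 to 5 had 45.64, 47.5, 40.58, 44.35 and 44.35 FPKM. No libraries overlapped, and Aco1 differed by -0.23 on the log2 scale (SE 0.05, adjusted p = 0.0225 in limma). It was -0.21 without WT 5 (adjusted p = 0.0552) and -0.23 without KO 5 (adjusted p = 0.0533).

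**Figure D3:**
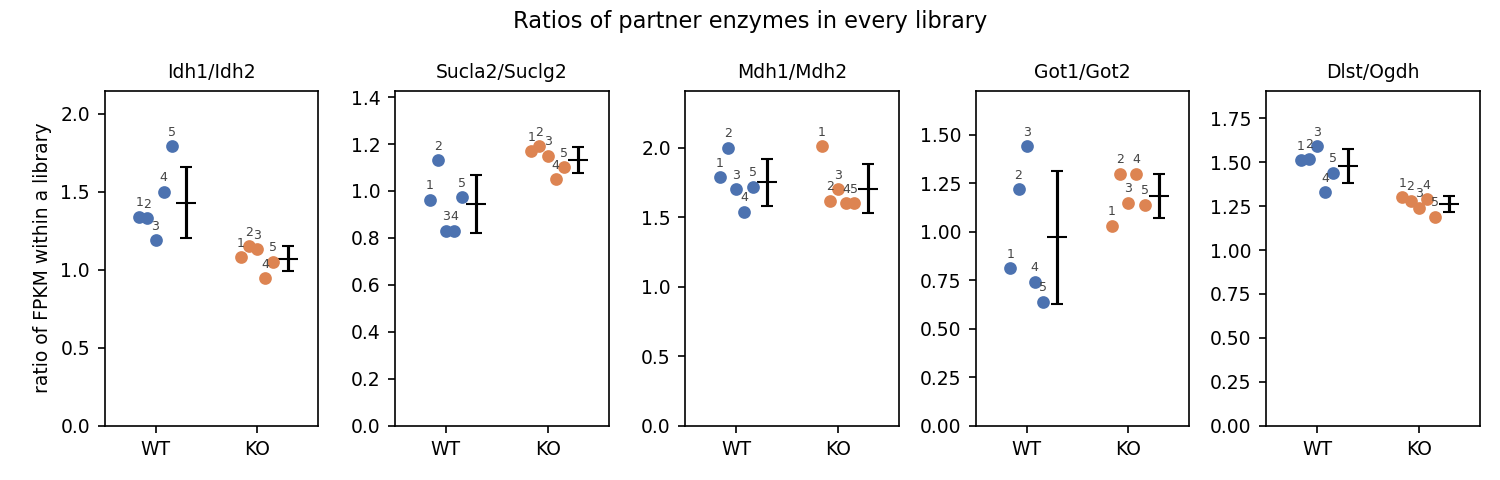
Ratio of FPKM within each library for 5 pairs of partner enzymes (points, numbered by replicate, with mean and SD in black, n = 5). Idh1/Idh2 and Dlst/Ogdh do not overlap between WT and KO, while Sucla2/Suclg2, Mdh1/Mdh2 and Got1/Got2 do.

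Of the 6 genes of the malate-aspartate shuttle and glutamate, 1 rose, 1 fell and 4 did not pass. Slc25a11, which exchanges malate for 2-oxoglutarate across the inner membrane, was at 39.66, 51.35, 46.81, 40.43 and 42.1 FPKM in WT 1 to 5 and 55.82, 57.84, 59.82, 60.28 and 58.85 FPKM in KO 1 to 5. Every KO library was above every WT library, and the KO libraries were tightly grouped. Slc25a11 was 0.41 higher on the log2 scale (SE 0.07, adjusted p = 0.00652 in limma). Slc25a11 (chr11:70644196-70647479, minus strand, mm10) shares exon bases with Rnf167 on the opposite strand. Rnf167 was at 27.98 ± 2 FPKM in WT and 24.56 ± 1.58 FPKM in KO and did not pass (log2 difference -0.18, limma adjusted p = 0.0985). Slc25a13, the liver aspartate-glutamate carrier called citrin, was at 103.1 ± 3.58 and 95.63 ± 5.6 FPKM and did not pass (log2 difference -0.11, limma adjusted p = 0.214).

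Got1, the cytosolic aspartate aminotransferase, was the most variable of the 33 genes in WT. Its values were 211.94, 345.96, 395.95, 200.83 and 177.74 FPKM in WT 1 to 5 and 282.6, 390.97, 327.2, 387.71 and 341.36 FPKM in KO 1 to 5. WT 3 was the highest of all 10 libraries, WT 2 lay within the KO range, and WT 1, WT 4 and WT 5 lay below it. The log2 difference was 0.44 with a 95% interval from -0.04 to 0.92 (limma adjusted p = 0.245). Its mitochondrial partner Got2 varied by 3.14% in WT, the smallest spread in the set, and differed by 0.09 (limma adjusted p = 0.256). Mdh1, the cytosolic malate dehydrogenase, was at 237.1 ± 27.8 and 272.1 ± 20.5 FPKM (log2 difference 0.20, limma adjusted p = 0.141). Without WT 2, where Mdh1 was at 285.29 FPKM, the difference was 0.27 and passed (adjusted p = 0.0272). The ratio of Mdh1 to Mdh2 overlapped between genotypes, with means of 1.75 ± 0.166 and 1.705 ± 0.174.

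Glud1, glutamate dehydrogenase, which links glutamate and ammonia to 2-oxoglutarate, had the highest WT mean of the set. It was at 285.36, 270.74, 273.68, 315.13 and 307.42 FPKM in WT 1 to 5 and 226.41, 233.08, 215.87, 265.31 and 238.27 FPKM in KO 1 to 5. The groups did not overlap, with KO 4 just under WT 2. Glud1 differed by -0.30 on the log2 scale (SE 0.07, adjusted p = 0.0185 in limma), and after quantile normalization it was -0.25 and did not pass (adjusted p = 0.0535). The gene lies at chr14:34310727-34345265 on the plus strand (mm10). A pseudogene, Glud-ps, matches it over 656 bases at 97.6% identity but averaged 0.21 FPKM.

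Slc25a10, the dicarboxylate carrier that exchanges malate or succinate for phosphate, was at 118.43, 145.22, 168.79, 104.33 and 97.01 FPKM in WT 1 to 5 and 191.43, 194.86, 160.73, 193.39 and 171.79 FPKM in KO 1 to 5. WT 3 exceeded KO 3, so the groups overlapped. Slc25a10 was 0.55 higher on the log2 scale (SE 0.14, adjusted p = 0.0342 in limma). This call was lost when any of 7 libraries was left out (WT 1, WT 4, WT 5, KO 1, KO 2, KO 4 or KO 5), with adjusted p up to 0.0749, and with no filter on low values (adjusted p = 0.0654).

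No gene for pyruvate entry passed limma: 0 of 2 for the carrier, 0 of 5 for pyruvate dehydrogenase, 0 of 3 for its kinases and phosphatase, and not Pcx. Over all genes tested 8.54% passed, so none among so few genes is near that share. At an unadjusted p under 0.05 there were 3 (Pdha1, Dld and Pdp2), where 24.5% of all genes tested had such a p. The carrier subunits Mpc1 and Mpc2, which work as a pair, were among the more abundant transcripts, at 259.4 ± 12.4 and 176.2 ± 17.5 FPKM in WT. Their log2 differences were -0.09 (95% interval -0.20 to 0.02) and 0.02 (-0.15 to 0.19). Pcx, pyruvate carboxylase, was at 203.8 ± 23.8 FPKM in WT and 195.8 ± 13.9 FPKM in KO, a difference of -0.05 with an interval from -0.23 to 0.13. These intervals bound the differences, and a p that misses the threshold does not show that levels were the same.

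Among the subunits of pyruvate dehydrogenase, Pdha1 (E1 alpha) and Dld were the nearest to the threshold. Pdha1 was at 46.67 ± 4.12 and 52.89 ± 2.88 FPKM (log2 difference 0.18, limma adjusted p = 0.116) and Dld at 63.66 ± 2.97 and 69.48 ± 2.03 FPKM (0.13, adjusted p = 0.121). Pdhb (E1 beta) differed by 0.11, Dlat (E2) by 0.17 and Pdhx (the E3-binding protein) by -0.10, with limma adjusted p from 0.268 to 0.583. The E1 beta transcript was more abundant than that of E2, since the ratio of Dlat to Pdhb lay between 0.161 and 0.225 in WT and between 0.182 and 0.257 in KO.

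The 3 regulators of the complex among the 33 genes had negative differences, none of which passed. That of Pdk2 turned positive after quantile normalization (0.005). Pdp2, a phosphatase that activates pyruvate dehydrogenase, was the least abundant gene of the set. It was at 6.87, 6.74, 7.32, 6.35 and 6.34 FPKM in WT 1 to 5 and 4.06, 5.67, 5.82, 5.87 and 5.83 FPKM in KO 1 to 5. The libraries did not overlap, with KO 1 lowest, but the gene did not pass (log2 difference -0.29, limma adjusted p = 0.0928). The kinases that inactivate the complex, Pdk1 and Pdk2, differed by -0.17 and -0.02 (limma adjusted p = 0.254 and 0.931). Pdk2 was the more abundant kinase, with a ratio of Pdk1 to Pdk2 from 0.317 to 0.466 in WT and from 0.271 to 0.441 in KO.

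By level in WT, the 33 genes ran from Pdp2 at 6.724 FPKM to Glud1 at 290.5 FPKM. After Glud1 came Got2, Got1, Mpc1, Mdh1, Pcx and Mpc2, and at the low end came Pdk1, Idh3a, Dlat, Pdhx and Pdp2. Of the 32 neighbouring pairs in this order, 29 had WT libraries that overlapped. Only Slc25a11 and Pdk1, Pdk1 and Idh3a, and Pdhx and Pdp2 were apart.

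**Figure D4:**
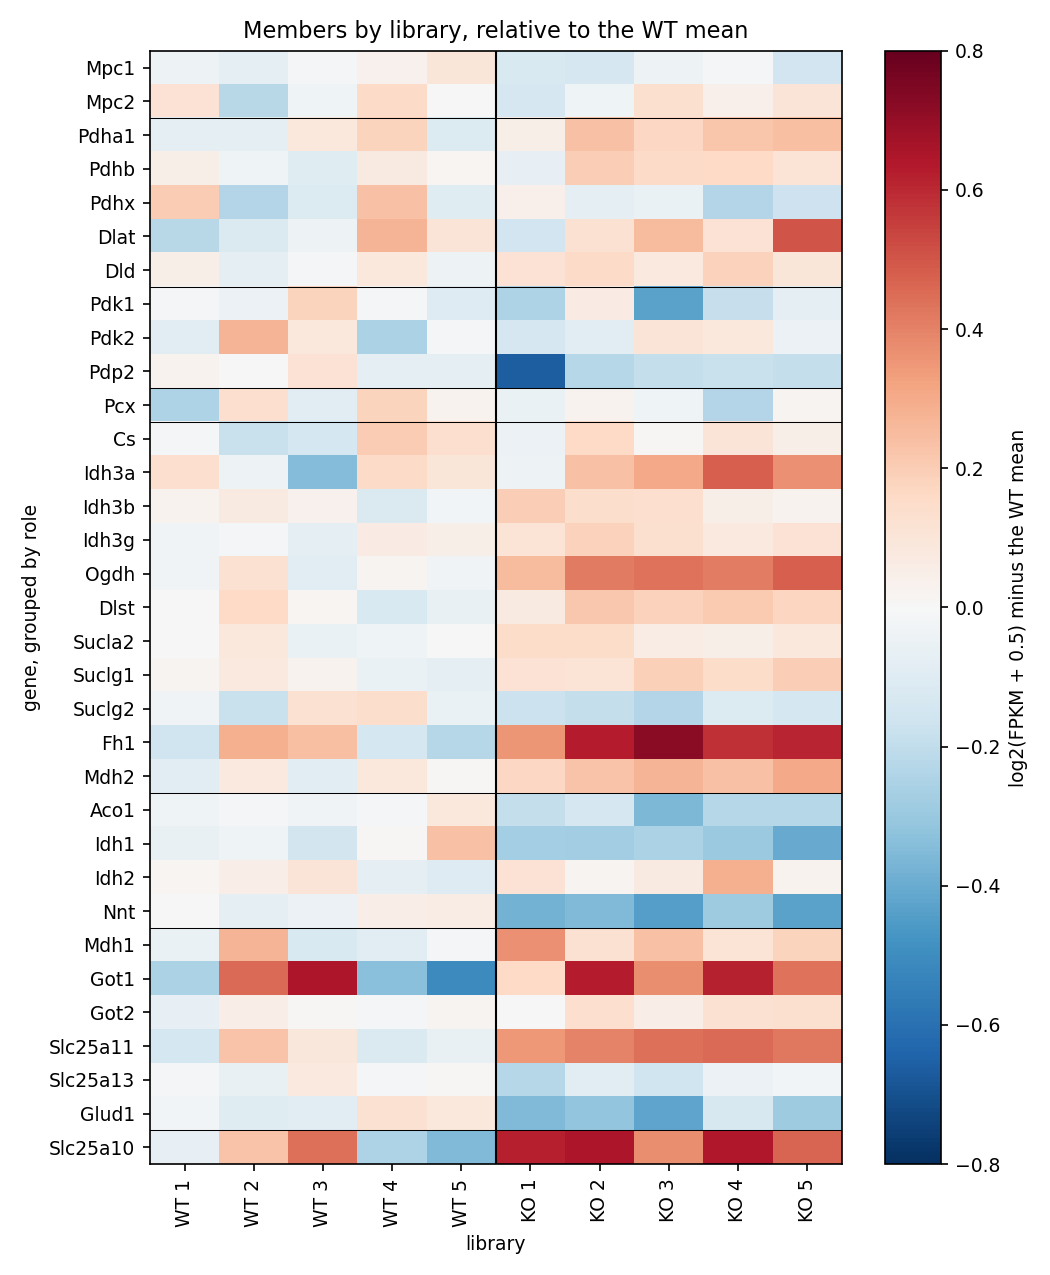
Log2(FPKM + 0.5) of each gene (y axis, grouped by role) in each library (x axis) minus the mean of the 5 WT libraries, in colour from -0.8 to 0.8. Fh1, Ogdh and Slc25a11 are red in all KO libraries, Nnt is blue in all KO libraries, and Got1 varies within WT as well.

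Some of the spread lay within WT. Both WT 2 and WT 3 were above WT 1, WT 4 and WT 5 for 9 of the 33 genes (Pdk2, Idh3b, Dlst, Suclg1, Fh1, Idh2, Got1, Slc25a11 and Slc25a10), or 27.3%, against 16.6% of all genes tested. They were both below for 7 genes (Mpc2, Pdhb, Pdhx, Cs, Idh3a, Nnt and Glud1), or 21.2%, against 17.6%. This division of the WT libraries was chosen after the values were seen. The summed level of 10 periportal hepatocyte markers was also higher in WT 2 and WT 3, at 6532.18 and 6146.41 FPKM, than in WT 1, WT 4 and WT 5, at 4709.46, 4569.46 and 4174.56 FPKM. Ppargc1a, a coactivator of mitochondrial genes, was at 7.59 and 11.61 FPKM in WT 2 and WT 3, at 2.46 to 3.58 FPKM in the other WT libraries and at 4.82 to 14.27 FPKM in KO. The part of either in the spread was not tested.

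Further genes of the pathway came from a list of 57, of which 53 were tested. In it 2 rose (Sdhd and Gpt2), 3 fell (Ldhd, Nadk2 and Gcsh) and 48 did not pass. That is 9.43% called, close to the 8.54% of all genes tested. The median log2 difference was -0.02, as it was over all genes tested. Ldhd, the mitochondrial D-lactate dehydrogenase, fell from 42.99 ± 2.48 to 31.26 ± 3.18 FPKM (log2 difference -0.46, limma adjusted p = 0.00406). Nadk2, the mitochondrial kinase that makes NADP from NAD, fell from 52.88 ± 2.28 to 43.57 ± 3.29 FPKM (-0.28, limma adjusted p = 0.0167). The libraries of both genes did not overlap.

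Weaker calls on that list lay close to the threshold and were lost when any of most libraries was left out. Sdhd, an anchor subunit of succinate dehydrogenase, rose by 0.24, and Gpt2, the mitochondrial alanine aminotransferase, rose by 0.29 (limma adjusted p = 0.0442 and 0.0441). Gcsh, the lipoylated H protein of glycine cleavage, fell by 0.17 on the log2 scale (limma adjusted p = 0.043). Sdhd and Gcsh each lost the call when any of 8 libraries was left out, and Gpt2 when any of 9 was (adjusted p up to 0.104, 0.0981 and 0.102). None of these 3 passed with no filter on low values. After rescaling without the mitochondrially encoded genes Sdhd and Gpt2 did not pass (limma adjusted p = 0.0636 and 0.0677), and Gcsh did not pass after median-of-ratios, upper-quartile or quantile scaling (limma adjusted p = 0.0521, 0.0524 and 0.06). Of 9 tested genes of regulation and lipoylation none passed limma and 0 had an unadjusted p under 0.05, and Sirt4, a mitochondrial sirtuin, had the smallest p (log2 difference -0.32, adjusted p = 0.299). Pdk4, a kinase induced by fasting and named here after its values were seen, ranged from 8.45 to 32.84 FPKM in WT and from 8.19 to 19.25 FPKM in KO and did not pass (-0.63, limma adjusted p = 0.304).

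Genes of mitochondrial mass were examined beside the matrix enzymes. The summed level of 14 genes of mitochondrial biogenesis and mass was 569.7 to 619.54 FPKM in WT and 650.12 to 695.97 FPKM in KO. Hspd1 was the most abundant of them, at 256.7 ± 31.4 FPKM in WT and 278.1 ± 18.3 FPKM in KO. It was not called (log2 difference 0.12, limma adjusted p = 0.406). Of the 14, limma called 5 higher in KO and 0 lower, and left 9 uncalled. These calls made up 35.7% of the list, against 8.54% of all genes tested (3.98% higher and 4.56% lower). The 5 were the outer membrane channels Vdac1 (0.27), Vdac2 (0.25) and Vdac3 (0.24), the import receptor Tomm20 (0.33) and Esrra (0.35), a nuclear receptor of mitochondrial genes, all in log2 difference. Among the 9 that did not pass, Polg, the mitochondrial DNA polymerase, was lower without overlap of libraries (log2 difference -0.26, limma adjusted p = 0.0771), and Tfam and Gabpa differed by -0.002 and 0.02. The part of these genes in the results was not tested. Transcripts encoded in mitochondria summed to 72475.71 to 101677.35 FPKM in WT and 83748.3 to 98702.65 FPKM in KO. Of these 13 genes 3 (mt-Co2, mt-Atp6 and mt-Atp8) were listed at 0 in every library, and mt-Co3 was at 0 to 0.27 FPKM. Of the 9 tested, mt-Nd1 (0.38, limma adjusted p = 0.0372) and mt-Nd6 (0.47, limma adjusted p = 0.0484), subunits of respiratory complex I, rose, and none fell. That is 22.2%, against 8.54% of all genes tested, and both genes had WT and KO libraries that overlapped. After rescaling without the mitochondrially encoded genes, 5 of the 33 genes were still higher and 4 lower. The periportal markers summed to 4174.56 to 6532.18 FPKM in WT and 6116 to 6423.96 FPKM in KO, with 2 of 10 called higher and 1 lower. Pericentral markers summed to 6396.13 to 7426.59 and 6897.6 to 7399.4 FPKM, with 1 of 10 higher and 1 lower. These are 30% of the periportal and 20% of the pericentral markers, against 8.54% of all genes tested. The part of either zone in the results was not tested.

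By position, the 33 genes were spread over 16 chromosomes, and 0 of them lay on chromosome 3, which carries Etnppl. The remaining called genes lie at chr5:135778480-135790398 (Mdh2, plus strand), chr11:6291633-6356642 (Ogdh, plus strand), chr11:120491840-120499187 (Slc25a10, plus strand), chr4:40143081-40198338 (Aco1, plus strand) and chr1:65158616-65186500 (Idh1, minus strand) in mm10. Slc25a10 shares exon bases with Gm11788 on the opposite strand, which averaged 0.742 FPKM in WT and 0.406 FPKM in KO. Near-identical copies of at least 300 bases at 95% identity were found for Got2, Pdhb, Suclg2 and, as given above, Glud1 and Nnt, so reads of these genes can be split. Pdha1 shares 426 bases with the overlapping gene Map3k15. Apart from the second Nnt gene, which has no value in the deposited data, each copy averaged at most 0.65 FPKM.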

How the data were processed

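Poly-A RNA of snap-frozen livers was sequenced in paired ends, 5 libraries per genotype, per the labels' protocols. The authors deposited FPKM per gene and library. The submitters' processing notes name DESeq, DESeq2, RSEM, STAR, R 4.0.2 and the build mm10, with no role for each; annotation and strand setting are not given in the sources used here. Since FPKM is scaled within a library, a change in abundant transcripts shifts the rest.

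Values were taken as deposited, as log2(FPKM + 0.5), which understates fold changes of low genes. The 12247 genes averaging 0.5 FPKM or more were fitted with limma 3.58.1 in R 4.3.3 (eBayes, trend and robust, genotype only, two-sided), with Benjamini-Hochberg adjustment over all of them. Intervals are 95%.

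The 33 genes and all lists were chosen with earlier results of these data known. Every one of the 33 is named, with called genes of the other pathway lists and the gene of smallest p in each; 1 gene first placed on the other pathway lists is not reported here and was taken out of their counts.

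Relative depth was estimated from 454 low genes, whose values are whole fragments times a step. No libraries were identical, and Spearman correlations across genes were 0.977 to 0.988 within and 0.974 to 0.983 between genotypes. Positions are from GENCODE M21 (GRCm38), copies from BLAST 2.17.0 and promoters from RefSeq. Alternatives were other pseudocounts, filters, scalings, fits, a replicate block and each library left out. Figures used matplotlib 3.10.9 in Python 3.11.15.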

Additional observations from a re-analysis of the deposited data

Results flagged for a closer look

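In groups of 5 libraries, a library whose gap to the nearest other exceeded 0.71 of the group's range was singled out. Of 66 groups searched in the 33 genes, 4 held such a library, and chance gives about 1 in 20, or 3.3. Pdp2 was at 4.06 FPKM in KO 1 against 5.67 to 5.87 FPKM in the other KO libraries, and without KO 1 its log2 difference was -0.20 (limma adjusted p = 0.114). Dlst was at 110.46 FPKM in KO 1 against 118.65 to 121.88 FPKM, with a difference of 0.20 without it (limma adjusted p = 0.0776). Aco1 was at 55.35 FPKM in WT 5 against 50.76 to 51.77 FPKM in the other WT libraries, and lost its call without it. Mdh1 was at 285.29 FPKM in WT 2 against 216.9 to 234.8 FPKM, and passed the test without it.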

How the results depend on the processing

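Of the 5 higher and 4 lower genes, Fh1, Slc25a11, Ogdh and Nnt stayed called in all 21 alternatives, with log2 differences of 0.52 to 0.65, 0.38 to 0.47, 0.37 to 0.43 and -0.40 to -0.35. Without 1 library, 4 to 7 of the 33 genes were higher and 2 to 4 lower, and 0 to 2 and 2 to 3 of the other pathway genes. The other pathway genes that rose numbered 0 with no filter on low values, where more genes were tested, and 0 after rescaling without mitochondrially encoded genes; the cause of the latter was not tested. Same-numbered WT and KO libraries had correlations of deviations from -0.207 to 0.208. WT 2 and WT 5 correlated best with the KO library of their own number, and WT 1, WT 3 and WT 4 did not. So few values cannot decide whether the numbers pair the samples. With the replicate number as a block, 3 of the 33 genes were higher and 2 lower, and 0 and 1 of the other pathway genes. Mdh2, Slc25a10, Aco1 and Idh1 lost their calls there (limma adjusted p = 0.0531, 0.0681, 0.0685 and 0.0794). All genes called went from 488 and 558 to 230 and 321 with the block. Signs changed for Pdk2 and Mpc2, which were never called. Pdk2 was at 0.005 after quantile normalization, 0.001 with library weights and between -0.08 and 0.051 without 1 library. Mpc2 was at -0.003 after rescaling without mitochondrially encoded genes and between -0.035 and 0.059 without 1 library. All genes called were 294 and 370 with no filter. No scaling moved the median of all genes by over 0.1 on the log2 scale, and depth is known only in relative terms.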
